A study of Mus musculus with 25 samples.

Results

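The carboxylesterases described here were 10 genes chosen by name: Ces1c, Ces1d, Ces1e, Ces1f, Ces1g, Ces2a, Ces2c, Ces2e, Ces3a and Ces3b. They were found by their Ensembl identifiers among the 41388 genes of the count files, and all 10 were among the 14065 genes that passed the filter on low counts (above 1 CPM in at least 2 libraries, where CPM are counts scaled to the size of the library). Another 10 genes of the files carry a Ces symbol, of which 5 passed the filter.

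Liver RNA of 25 male C57B/6J mice aged 20 weeks was selected for poly-A tails and sequenced, with 1 library per mouse. The study asked which effects of the NAD-producing enzyme NAMPT on the liver need the deacetylase SIRT1, and whether the carboxylesterase genes followed that design is what the comparisons below measure. Every mouse received an AAV8 virus, which carried either no insert (empty vector, EV) or Nampt under the thyroxine binding globulin promoter, which is active in hepatocytes. The chow WT EV group (n = 3) was kept on standard chow for the 12-week study. The WD WT EV (n = 6) and WD WT NAMPT (n = 6) groups were fed a Western diet (WD), rich in fat and sugar. The WD LKO EV (n = 5) and WD LKO NAMPT (n = 5) groups had the same diet and vectors and were labelled as liver-specific SIRT1 knockouts (LKO), made with a Cre driven by the Albumin promoter on the floxed Sirt1 allele. WT mice were littermates that carried the floxed allele without Cre, so the Sirt1 fl/fl background was shared by WT and LKO. Other liver cells than hepatocytes and their lineage keep Sirt1 in such a model.

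Library totals lay between 20166175 and 32937326 counts. Sirt1 counts were not lower in the libraries labelled LKO, at 7.16 to 11.1 normalized CPM against 7.62 to 9.53 in the Western diet WT libraries. Counts per whole gene do not show a deletion of single exons, so they neither check nor contradict the genotype labels, and "LKO" below means libraries labelled so. Nampt measured 59.5 ± 10.6 CPM (SD, n = 6) in WD WT NAMPT and 47.4 ± 6.46 CPM (n = 6) in WD WT EV, an increase that did not pass the test (adjusted p = 0.144, limma). It measured 79.9 ± 28.4 CPM (n = 5) in WD LKO NAMPT and 56.1 ± 12.0 CPM (n = 5) in WD LKO EV. That increase did not pass either (adjusted p = 0.403, limma). The hepatocyte markers Alb, Ttr, Apoa1, Cps1, Cyp2e1, Tat, Pck1 and Ass1 were present in every library, with summed levels of 47569 to 83612 CPM. No batch, cage or hour of collection was labelled. In whole liver, fewer hepatocytes and less RNA per hepatocyte cannot be told apart. The labels describe separate mice, so p-values measure the spread between animals of 1 study.

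Carboxylesterases are serine hydrolases that split ester, amide and thioester bonds. In mouse liver they sit mostly in the lumen of the endoplasmic reticulum, where they activate or clear ester drugs and mobilise stored triacylglycerol, cholesteryl ester and retinyl ester. Mice have many more Ces genes than humans, the products of tandem duplication, and the subfamilies Ces1, Ces2 and Ces3 lie in gene clusters.

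The members lay in 2 stretches of chromosome 8 of the GRCm38 build, and their exons overlapped no other annotated gene. The Ces1 genes were on the minus strand, with Ces1c at chr8:93099015-93131283, Ces1d at chr8:93166068-93197838, Ces1e at chr8:93201218-93229619, Ces1f at chr8:93256236-93279747 and Ces1g at chr8:93302369-93337308, each with 14 exon blocks. The Ces2 and Ces3 genes were on the plus strand, with Ces2a at chr8:104734003-104741634, Ces2c at chr8:104847068-104854483, Ces2e at chr8:104926260-104934672, Ces3a at chr8:105048599-105058414 and Ces3b at chr8:105083753-105093929.

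The copies are alike in sequence, which matters for reads of 50 bases. The following 60 coding bases, taken from the GENCODE transcripts of the same build, surround the active-site serine codon (in capitals, found by the Gly-X-Ser-X-Gly codon pattern of serine hydrolases). They are shown for 3 pairs to set the near-identical Ces3 genes beside the more distant Ces1 and Ces2 genes.
Ces1d: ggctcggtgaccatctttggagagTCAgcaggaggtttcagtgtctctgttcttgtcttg
Ces1g: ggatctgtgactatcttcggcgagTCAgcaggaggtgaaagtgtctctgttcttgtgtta
Ces2a: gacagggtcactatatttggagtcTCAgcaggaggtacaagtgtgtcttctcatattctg
Ces2e: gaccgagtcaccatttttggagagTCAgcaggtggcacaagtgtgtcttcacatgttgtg
Ces3a: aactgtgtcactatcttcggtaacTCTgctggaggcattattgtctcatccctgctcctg
Ces3b: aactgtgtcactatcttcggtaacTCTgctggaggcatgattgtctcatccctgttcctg

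Within these 60 bases, Ces3a and Ces3b differed at 2 positions, Ces1d and Ces1g at 10, and Ces2a and Ces2e at 11. Over the whole aligned coding sequence, Ces3a and Ces3b were 95.3% identical, Ces2a, Ces2c and Ces2e were 83.0% to 84.0% identical in pairs, and pairs of Ces1 members were 74.6% to 81.5% identical. Only reads that align to 1 place were counted. Of all runs of 50 bases in a transcript, the share also present in another gene was 42.2% for Ces2c, 30.9% for Ces3a, 26.1% for Ces3b, 22.2% for Ces2a and 17% for Ces1c, against 1.28% to 3.36% for Ces1d, Ces1e, Ces1f, Ces1g and Ces2e. Counts of the first 5 genes therefore rest on a smaller part of their transcript, and their levels against other genes are uncertain. That of Ces3a relative to Ces3b is included.

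Promoter windows (250 bases before the RefSeq start site, RefSeq on GRCm38.p6) were at hand for 7 of the 10 members: Ces1c, Ces1e, Ces1g, Ces2a, Ces2c, Ces2e and Ces3b. The windows below are those of 3 genes that differed between the diets in the comparison that follows (Ces1c, Ces2a and Ces2e) and of Ces1e, which shared a motif with Ces1c. Each is printed on the strand of its gene, and capitals mark matches on either strand to the motifs of the next paragraph, other than CCAAT.
Ces1c, chr8:93131284-93131533, minus strand: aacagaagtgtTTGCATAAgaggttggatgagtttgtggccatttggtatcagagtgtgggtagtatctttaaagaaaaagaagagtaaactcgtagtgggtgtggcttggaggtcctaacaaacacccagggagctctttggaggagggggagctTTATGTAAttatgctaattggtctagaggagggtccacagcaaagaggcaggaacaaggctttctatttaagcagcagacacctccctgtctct
Ces1e, chr8:93229620-93229869, minus strand: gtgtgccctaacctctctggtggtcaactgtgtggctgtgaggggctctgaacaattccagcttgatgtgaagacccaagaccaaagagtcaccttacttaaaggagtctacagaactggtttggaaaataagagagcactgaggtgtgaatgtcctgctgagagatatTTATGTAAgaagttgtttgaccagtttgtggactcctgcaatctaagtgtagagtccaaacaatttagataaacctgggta
Ces2a, chr8:104733753-104734002, plus strand: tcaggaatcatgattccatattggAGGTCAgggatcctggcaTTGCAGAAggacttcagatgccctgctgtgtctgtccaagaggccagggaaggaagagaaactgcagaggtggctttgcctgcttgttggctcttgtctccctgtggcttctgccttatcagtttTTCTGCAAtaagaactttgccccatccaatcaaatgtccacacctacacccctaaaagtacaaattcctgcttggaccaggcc
Ces2e, chr8:104926010-104926259, plus strand: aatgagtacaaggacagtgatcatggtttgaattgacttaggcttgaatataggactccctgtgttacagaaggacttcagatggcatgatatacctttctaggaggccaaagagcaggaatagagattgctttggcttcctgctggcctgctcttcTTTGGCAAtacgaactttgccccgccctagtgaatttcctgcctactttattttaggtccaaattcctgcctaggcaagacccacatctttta

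The letters TTATGNAA (D-box, the element read by Dbp, Tef, Hlf and Nfil3) were in the windows of Ces1c, Ces1e and Ces1g, 3 of 7, and in 3.07% of 32851 windows of the same length. These 3 genes are copies of 1 subfamily, with 77.6% to 78.4% coding identity in pairs. Windows of related copies are not independent, so the shares of the members and of all windows cannot be compared as such. TTGCNNAA (read by C/EBP factors) was in those of Ces1c, Ces2a and Ces2e, 3 of 7 against 9.56% of all. At the distal site of Ces1c, 239 to 232 bases before the start, the same 8 bases match both, on opposite strands. CCAAT was in 5 of 7 against 33.8%, TATAAA in 2 against 12.4%, and AGGTCA (a nuclear receptor site) in 1 against 14%. TGTTTAC (the FOXA site), CACGTG (E-box) and the DR1 and IR1 repeats of AGGTCA were in none of the 7 windows. A match is a run of letters and not a measured binding site.

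Levels per length came first. RPKM (CPM divided by the exon length in kilobases) allows genes to be set beside each other. Ces1c, the secreted esterase of rodent plasma, and Ces3a were the highest 2 members in every group, and together they held 58.3% to 63.9% of the members' summed CPM in the group means. In chow WT EV livers, Ces1c measured 866 ± 23.1 RPKM (SD, n = 3) and Ces3a 838 ± 193 RPKM, which overlapped. Ces1d, the triacylglycerol hydrolase that mobilises lipid for secretion, had rank 3 in every group, at 263 ± 66.6 RPKM in chow WT EV and 93.8 ± 46.3 RPKM in WD WT NAMPT. Ces2c, an acylcarnitine hydrolase, ranked last in every group, with group means of 10.9 to 17.6 RPKM.

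The genes between these ends changed places with diet. In chow WT EV, Ces2a (216 ± 47.2 RPKM) had rank 4 and Ces2e (48.2 ± 19.3 RPKM) rank 9. In WD WT EV, Ces2e (95.3 ± 21.2 RPKM) had rank 5 and Ces2a (71.9 ± 23.8 RPKM) rank 9, and each gene from rank 3 to rank 8 overlapped the next in the order. Together the members took 0.624% ± 0.063 (SD, n = 3) of all counts in chow WT EV, 0.436% ± 0.056 (n = 6) in WD WT EV and 0.360% ± 0.087 (n = 6) in WD WT NAMPT. The share was 0.406% ± 0.054 (n = 5) in WD LKO EV and 0.390% ± 0.047 (n = 5) in WD LKO NAMPT.

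**Figure D1:**
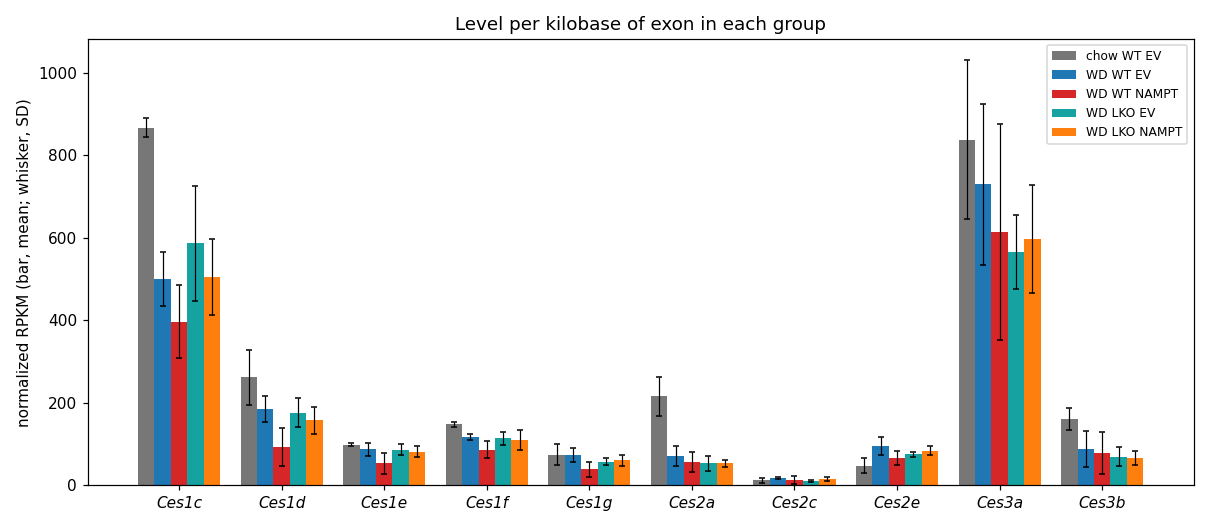
Normalized RPKM of the 10 carboxylesterases (vertical axis, CPM per kilobase of exon) in the 5 groups; bars are group means and whiskers the SD between libraries (n = 3, 6, 6, 5 and 5 in the order of the legend). Ces1c and Ces3a stand above all others in every group, and Ces2a is 216 RPKM on chow and 71.9 RPKM or less in each Western diet group.

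The comparison of WD WT EV with chow WT EV asks what the Western diet did to the same genotype and vector. After the diet 4 members fell (Ces2a, Ces1c, Ces3b and Ces1f) and 1 rose (Ces2e), so 5 of 10 passed the test, beside 22% of all genes tested (10.1% higher and 12% lower). The median log2 fold change of the members was -0.34, against 0.00 over all genes. Test results are adjusted p-values over all genes from limma, with a call at 0.05 or less, and errors of log2 fold changes are SE.

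Ces2a, a hepatic hydrolase of acylglycerols, measured 435, 457 and 638 CPM in the chow libraries. In WD WT EV it lay between 96.1 and 240 CPM with a median of 187 CPM. The groups did not overlap, and the level was 2.87-fold lower (log2 fold change -1.52 ± 0.25, adjusted p = 0.000145). Ces1c was almost equal in the chow libraries, at 1958, 2011 and 2066 CPM. On the Western diet it lay between 901 and 1346 CPM with a median of 1207 CPM. Again every Western diet library was below every chow library, and the level was 1.70-fold lower (-0.77 ± 0.15, adjusted p = 0.00110).

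Ces1f, a microsomal lipid esterase of hepatocytes, was 464, 494 and 502 CPM on chow and 343 to 413 CPM (median 382) on the Western diet. It also did not overlap between the groups (3 of 10 lower, beside 8.45% of all genes lower without overlap), with a small change of -0.32 ± 0.12 (adjusted p = 0.0492). Ces3b measured 331, 447 and 456 CPM on chow and 89.4 to 362 CPM (median 256) on the Western diet. Its Western diet libraries fell into a lower pair, replicates 1 and 4, at 89.4 and 95.4 CPM, and 4 others at 227 CPM or more. The change was -1.08 ± 0.35 (adjusted p = 0.0283).

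Ces2e, which lies in the same cluster as Ces2a with Ces2c between them, went the other way. It measured 164, 157 and 70.0 CPM in the chow libraries. In WD WT EV it lay between 159 and 325 CPM with a median of 272 CPM, so 5 of 6 libraries were above every chow library. The level was 1.78-fold higher (0.83 ± 0.17, adjusted p = 0.00139). The other members did not pass the test, and Ces1d came nearest (622 ± 158 CPM, n = 3, against 438 ± 75 CPM, n = 6, adjusted p = 0.0662).

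The calls of Ces1c, Ces2a and Ces2e held in all 9 alternative fits and without any single library. Those of Ces1f and Ces3b did not: the number of members called was 3 without chow WT EV replicate 1 or 2 and without WD WT EV replicate 1 or 4, and Ces1f was called in only 1 of 9 such fits. Calls over all genes, 3101 with every library, numbered 966, 834, 2500 and 2661 in those 4 fits. Chow replicate 3 held the lowest chow value of 7 members and the highest of the other 3 (Ces1c, Ces1f and Ces2a), and without it 5 were called, with Ces1d in place of Ces1f. The clock genes also separated these groups. A clock score lay between -4.34 and -2.57 in the chow libraries and between -1.49 and 1.51 in WD WT EV. It was the mean standardized level of Dbp, Tef, Nr1d1, Nr1d2, Per2, Per3 and Ciart minus that of Arntl, Clock, Npas2 and Nfil3. With this score as a covariate the same 5 members were called, with a median of -0.66 over the 10 members. The score did not overlap between these groups, so this fit cannot separate the clock from the diet. The part of the clock in the differences was not tested.

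Markers of liver cell types differed between the diets as well. Of 8 hepatocyte markers, 3 were called lower without overlap, namely Cps1 (-1.22 ± 0.25), Tat (-0.95 ± 0.21) and Ass1 (-0.93 ± 0.19), and none higher. Of 9 macrophage markers 2 were called higher, with sums of 191 to 237 CPM on chow and 248 to 367 CPM in WD WT EV. Of 6 stellate cell markers 2 were called higher (sums of 179 to 205 CPM and 196 to 321 CPM), and of 5 endothelial markers 1 was called higher and 1 lower. The single adipocyte marker tested, the lipid droplet gene Cidec, was higher (4.59 ± 1.13), and the sum of 4 such markers was 1.65 to 2.73 CPM on chow and 5.68 to 115 CPM in WD WT EV. The single pancreatic acinar marker tested, Cela1, was lower (-1.31 ± 0.30), and the sum of 4 such markers was 15 to 34.7 CPM on chow and 7.18 to 32.4 CPM in WD WT EV. The part of these differences in those of the carboxylesterases was not tested.

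Among the other family members, Ces1b fell (85.1 ± 2.25 CPM, n = 3, to 40.9 ± 6.61 CPM, n = 6, log2 fold change -1.04 ± 0.16, adjusted p = 6.00e-05) and Ces2g rose (39.2 ± 10.1 CPM to 59.0 ± 9.89 CPM, 0.48 ± 0.12, adjusted p = 0.00721). Of 16 other lipid ester hydrolases tested, 7 rose and none fell, with a median of 0.28. The largest differences were those of Pnpla3 (4.53 ± 1.53), the monoacylglycerol lipase Mgll (1.13 ± 0.17) and the lysophospholipase Pnpla7 (0.69 ± 0.10). Of 11 other drug hydrolases, Esd rose by 0.26 ± 0.09 and Afmid fell by 0.88 ± 0.22 on the log2 scale. Among 13 nuclear receptors and liver factors, Ppara, the fatty acid receptor, was higher by 1.04 ± 0.16 and Nr0b2 by 0.67 ± 0.23.

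**Figure D2:**
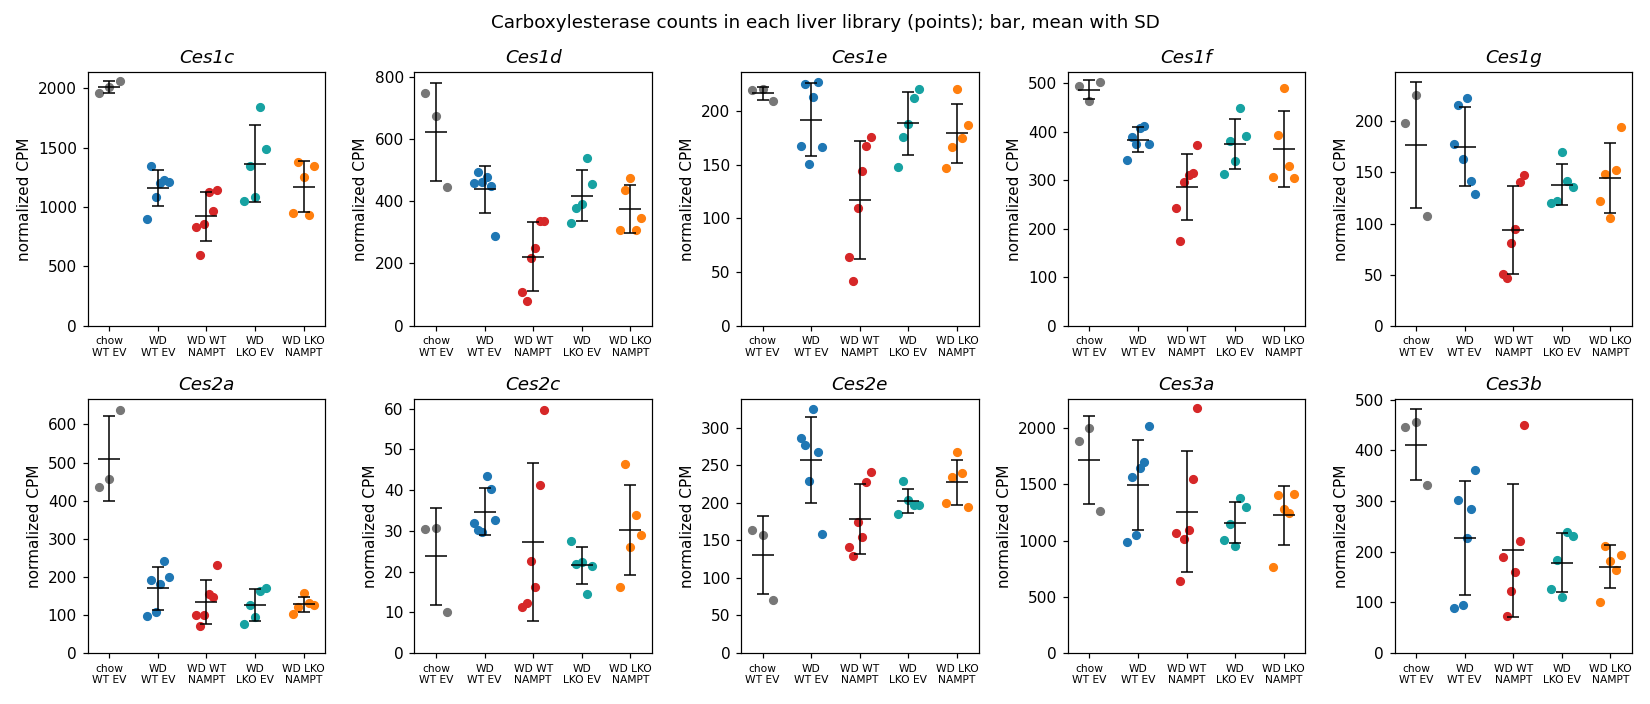
Normalized CPM (vertical axes, each from 0) of the 10 carboxylesterases in every library; points are libraries, the bars their group mean with SD. Ces2a and Ces1c show the gap between chow and all Western diet libraries of WT EV mice, and Ces1d and Ces1g show the low WD WT NAMPT libraries.

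The comparison of WD WT NAMPT with WD WT EV asks what the Nampt vector did on the Western diet with Sirt1 intact. The Ces1 genes Ces1d, Ces1g, Ces1e and Ces1f and the Ces2 gene Ces2e fell, 5 of 10, beside 13.4% of all genes called and 5.77% called lower. All 10 log2 fold changes were below 0, from -1.0 to -0.31, with a median of -0.48 against 0.00 over all genes. No member was without overlap between the groups (beside 0.96% of all genes), and 7 of 10 had an unadjusted p under 0.05 (beside 30.3%).

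Ces1d measured 109, 80.4, 219, 250, 337 and 337 CPM in WD WT NAMPT replicates 1 to 6. In WD WT EV it measured 458, 494, 462, 477, 449 and 288 CPM in replicates 1, 2, 4, 6, 7 and 8. Replicates 1 to 4 of the NAMPT group were below every EV library, and replicates 1 and 2 were the lowest. The level was 1.99-fold lower (log2 fold change -0.99 ± 0.21, adjusted p = 0.00922).

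Ces1g, an endoplasmic reticulum esterase known to restrain hepatic lipid production, measured 50.9, 47.1, 81.0, 94.6, 141 and 147 CPM in the same NAMPT libraries. In WD WT EV it lay between 129 and 223 CPM, with a median of 171 CPM. Again replicates 1 to 4 were below every EV library, and replicates 5 and 6 lay inside the EV range. The level was 2.0-fold lower (-1.0 ± 0.20, adjusted p = 0.00851).

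Ces1e, also known as egasyn for its binding of beta-glucuronidase, followed the same order of libraries. It measured 63.6, 42.1, 109, 144, 167 and 176 CPM in WD WT NAMPT, against 151 to 227 CPM (median 190) in WD WT EV. The change was -0.71 ± 0.19 (adjusted p = 0.0182). Ces1f was lower by a smaller amount: 242, 175, 297, 311, 315 and 372 CPM against 343 to 413 CPM (-0.39 ± 0.11, adjusted p = 0.0244). Of the NAMPT libraries, 5 of 6 lay below the EV range for Ces1f and 4 of 6 for Ces1e.

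Ces2e measured 141, 129, 174, 154, 228 and 241 CPM in WD WT NAMPT, against 159 to 325 CPM (median 272) in WD WT EV (-0.58 ± 0.17, adjusted p = 0.0265). It was the single member that rose with the diet, and this comparison shares the WD WT EV libraries with that of the diets. Ces2c measured 11.3, 12.4, 22.6, 16.3, 41.2 and 59.7 CPM against 29.6 to 43.3 CPM (-0.67 ± 0.28, adjusted p = 0.105). Its replicate 6 was above and replicates 1 to 4 were below every EV library. Ces1c (-0.31 ± 0.14), Ces2a (-0.36 ± 0.23), Ces3a (-0.34 ± 0.19) and Ces3b (-0.35 ± 0.32) did not pass the test either, with adjusted p of 0.152, 0.291, 0.221 and 0.483.

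The libraries of the NAMPT group kept a common order over the family. Replicate 2 held the lowest value of the group for 9 of 10 members and replicate 6 the highest for 9 of 10. For Ces3a these were 640 and 2181 CPM, and for Ces3b 73.6 and 450 CPM. Replicate 6 was above every WD WT EV library for Ces2c, Ces3a and Ces3b. The limma fit gave each library a weight, which was 0.506, 0.401 and 0.336 for replicates 1, 2 and 6. It was 1.62, 1.85 and 0.922 for replicates 3, 4 and 5, so the log2 fold changes need not match the plain group means.

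Ces1d and Ces1g were called in all 9 alternative fits and in all 12 fits that left out 1 library. Ces1e was called in 5 and 9 of them, Ces1f in 4 and 7, and Ces2e in 1 and 6, so that 2 members were called by edgeR's quasi-likelihood test and 4 by DESeq2. The number called was 2 without WD WT EV replicate 2 or 6 or WD WT NAMPT replicate 3, and 3 without WD WT NAMPT replicate 1 or 2. Over all genes these 5 fits called 291, 628, 132, 1246 and 741, against 1890 with every library. Without WD WT NAMPT replicates 1 and 2 together, a fit chosen after the values were seen, limma called 0 members of 10 (5 at an unadjusted p under 0.05) and 37 genes in all. Ces1d was then lower by -0.72 (adjusted p = 0.0572) and Ces1g by -0.76 (adjusted p = 0.0648) on the log2 scale.

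Markers of other cell types moved in the same libraries. The sum of 9 macrophage markers (Clec4f, Timd4, Vsig4, Adgre1, Cd5l, Marco, Cd68, Gpnmb and Trem2) was 248 to 367 CPM in WD WT EV and 233 to 752 CPM in WD WT NAMPT, and 5 of the 9 genes were called higher. In WD WT NAMPT replicates 1 to 6 the sum was 727, 721, 752, 503, 403 and 233 CPM. The 3 libraries with the highest macrophage sums were thus the 3 with the lowest Ces1d and Ces1g. Replicate 6, with a sum inside the range of the chow libraries, had Ces1d at 337 CPM, below 5 of 6 EV libraries. Its Ces1g, at 147 CPM, lay inside the EV range of 129 to 223 CPM. Neutrophil markers summed to 3.66 to 27.8 CPM against 2.81 to 7.96 CPM (2 of 4 tested genes called higher), and 4 of 6 stellate cell markers were called higher. Of 5 endothelial markers, Pecam1 was called higher (0.36 ± 0.11) and Clec4g lower (-0.40 ± 0.10), and the sums were 231 to 271 CPM in WD WT EV and 227 to 260 CPM in WD WT NAMPT. No macrophage, neutrophil or stellate marker was at 0 in the whole of either group. Of 8 hepatocyte markers, 1 was called, Cyp2e1, which was lower (-0.98 ± 0.26). The part of these cells in the carboxylesterase differences was not tested. The clock score was -1.49 to 1.51 in WD WT EV and 0.03 to 2.16 in WD WT NAMPT. With the score as a covariate 4 members were called (Ces1d, Ces1e, Ces1f and Ces1g). In a longer list of 15 clock genes, 5 were called lower.

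**Figure D3:**
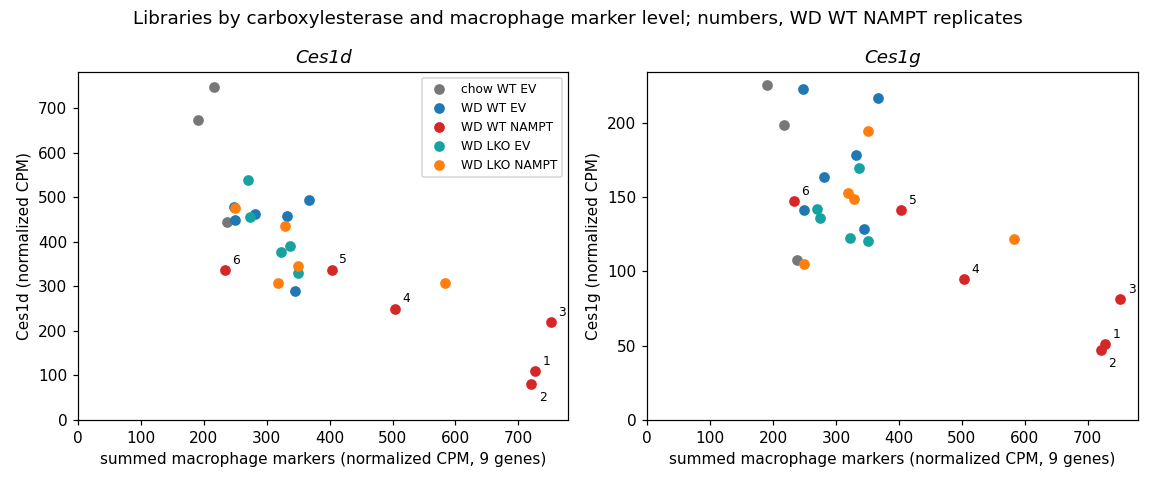
Normalized CPM of Ces1d (left) and Ces1g (right) on the vertical axes against the summed CPM of 9 macrophage markers on the horizontal axes, 1 point per library coloured by group, with the WD WT NAMPT replicates numbered. Replicates 1, 2 and 3 lie at the lower right, and replicate 6 lies among the other groups at a macrophage sum of 233 CPM.

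Other hydrolases were read beside the family. Of 11 other drug hydrolases, 4 fell and none rose, with a median of -0.34. The largest were the paraoxonase Pon1 (-0.76 ± 0.18), Cmbl (-0.56 ± 0.11) and Bphl (-0.49 ± 0.13). Of 16 other lipid ester hydrolases, the lipoprotein lipase Lpl rose (1.44 ± 0.30) and Mgll fell (-0.52 ± 0.17), and the median was -0.14. Of 13 receptors and factors, 1 passed the test: Nr1i3, the xenobiotic receptor CAR, was lower (-0.95 ± 0.22, adjusted p = 0.0128). None of the 5 other tested Ces genes was called by limma, and 2 of them, Ces2d-ps and Ces2g, had an unadjusted p under 0.05, with log2 fold changes of -0.97 ± 0.34 and -0.33 ± 0.12.

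The comparison of WD LKO NAMPT with WD WT NAMPT asks whether the labelled loss of Sirt1 altered the levels under the Nampt vector. It uses the same WD WT NAMPT libraries as the comparison above, so the differences of both share their values. Ces1d and Ces1g were higher in WD LKO NAMPT, 2 of 10, beside 7.96% of all genes called and 4.18% called higher. At an unadjusted p under 0.05 there were 7 of 10, beside 28.6% of all genes.

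Ces1d measured 308, 436, 475, 307 and 345 CPM in WD LKO NAMPT replicates 1 to 5, against a range of 80.4 to 337 CPM in WD WT NAMPT. The level was 1.67-fold higher (0.74 ± 0.22, adjusted p = 0.0417), with 3 of 5 libraries above every WT library. Ces1g measured 122, 149, 105, 153 and 195 CPM against 47.1 to 147 CPM, and was 1.69-fold higher (0.76 ± 0.21, adjusted p = 0.0352). The ranges of both genes overlapped between the groups.

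Ces1e (0.56 ± 0.20, adjusted p = 0.0738) and Ces2c (0.65 ± 0.29, adjusted p = 0.143) had differences of a similar size that did not pass. Ces2a (-0.02 ± 0.24), Ces3a (0.16 ± 0.20) and Ces3b (0.15 ± 0.34) were close to 0. Both calls depended on the fit: edgeR's quasi-likelihood test and DESeq2 called 0 members each (5 of 10 at an unadjusted p under 0.05 with either), and limma called 0 without WD WT NAMPT replicate 1, 2 or 3 or WD LKO NAMPT replicate 2, 3 or 5, and 4 without WD WT NAMPT replicate 5. Calls over all genes numbered 1120 in limma with every library, 45 in edgeR and 294 in DESeq2, 0 to 640 in the 6 limma fits without member calls, and 1954 in the last. The macrophage sum was 250 to 583 CPM (median 329) in WD LKO NAMPT, against 233 to 752 CPM (median 612) in WD WT NAMPT. All 9 macrophage markers had estimates below 0 in this comparison, 7 of them at an unadjusted p under 0.05, and 1 was called (Marco). The 4 neutrophil and 6 stellate cell markers tested were also below 0, with 1 called in each list (Csf3r and Pdgfrb). Of 4 cholangiocyte markers, all below 0, Sox9 was called, and the sums were 3.58 to 13.3 CPM in WD LKO NAMPT and 8.02 to 23.1 CPM in WD WT NAMPT. Of 8 hepatocyte markers, Cyp2e1 was called higher (0.92 ± 0.27) and Tat lower (-0.74 ± 0.21). Their part in the differences of Ces1d and Ces1g was not tested.

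Of the 11 other drug hydrolases, 4 were higher and none lower in this comparison, with the largest differences in Pon1 (0.69 ± 0.20), the butyrylcholinesterase Bche (0.54 ± 0.16) and Esd (0.42 ± 0.10). Of the lipid ester hydrolases, Mgll (0.66 ± 0.18) and Pnpla8 (0.43 ± 0.10) were higher. Nr1i3 was the single receptor called (0.85 ± 0.24, adjusted p = 0.0336).

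The comparison of WD LKO NAMPT with WD LKO EV gave the effect of the Nampt vector in the libraries labelled LKO. None of the 10 members was called by limma (1 at an unadjusted p under 0.05, beside 9.63% of all genes), and edgeR's quasi-likelihood test and DESeq2 called none either, with 0 at an unadjusted p under 0.05. Of all genes, 0.00711% were called. Ces1d was 374 ± 77.2 CPM (n = 5) with NAMPT and 418 ± 81.1 CPM (n = 5) without (-0.13 ± 0.22, adjusted p = 0.889). Ces1g was 145 ± 34.1 CPM and 138 ± 19.9 CPM (0.14 ± 0.21, adjusted p = 0.873). Ces2c had the unadjusted p under 0.05: 30.3 ± 11 CPM against 21.5 ± 4.63 CPM (0.64 ± 0.29, adjusted p = 0.494). The log2 fold changes of the members lay between -0.13 and 0.64, 6 above and 4 below 0.

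Whether the effect of NAMPT differed between WT and LKO was tested by the interaction term. All 10 estimates were positive, from 0.17 to 1.31 with a median of 0.56, against -0.01 over all genes. None passed the adjustment in limma, beside 0.00711% of all genes called. At an unadjusted p under 0.05 there were 5 of 10 members, beside 21.2% of all genes, and 3 with edgeR's quasi-likelihood test or DESeq2, which called 0. The largest were Ces2c (1.31 ± 0.40, adjusted p = 0.0930) and Ces1g (1.14 ± 0.29, adjusted p = 0.0745). Those of Ces1d (0.87 ± 0.31, adjusted p = 0.121), Ces2e (0.71 ± 0.24, adjusted p = 0.114) and Ces1e (0.61 ± 0.27, adjusted p = 0.196) followed. Ces1g and Ces2c were called without WD WT NAMPT replicate 5, without its replicate 6 and without WD LKO NAMPT replicate 1, and no member in the other 19 such fits. Over all genes those 3 fits called 366, 636 and 677, against 1 with every library. All 9 macrophage, 6 stellate, 4 neutrophil and 4 cholangiocyte markers tested were below 0 in the interaction. Their medians were -0.74, -0.78, -1.13 and -1.08, and 0 were called. Of the hepatocyte markers 3 were above and 5 below 0, and of the endothelial markers 2 and 3. The part of these cells in the member estimates was not tested.

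The comparison of WD LKO EV with WD WT EV asked what the labelled loss of Sirt1 did without the Nampt vector. None of the 10 members was called by limma (1 at an unadjusted p under 0.05, beside 6.33% of all genes), by edgeR's quasi-likelihood test (0) or by DESeq2 (1), and 0.00711% of all genes were called. Of the estimates, 9 of 10 were below 0, with a median of -0.31. The median was -0.17 without WD WT EV replicate 2 (8 below 0) and -0.18 without WD LKO EV replicate 3. Ces2c measured 27.6, 21.8, 22.3, 14.6 and 21.3 CPM in WD LKO EV and 29.6 to 43.3 CPM in WD WT EV. Its groups did not overlap (1 of 10 members lower, beside 0.327% of all genes), yet the adjusted p was 0.714 (log2 fold change -0.66 ± 0.27). Ces1c was the member with a positive estimate (1364 ± 324 CPM, n = 5, against 1161 ± 153 CPM, n = 6, 0.17 ± 0.14, adjusted p = 0.950).

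**Figure D4:**
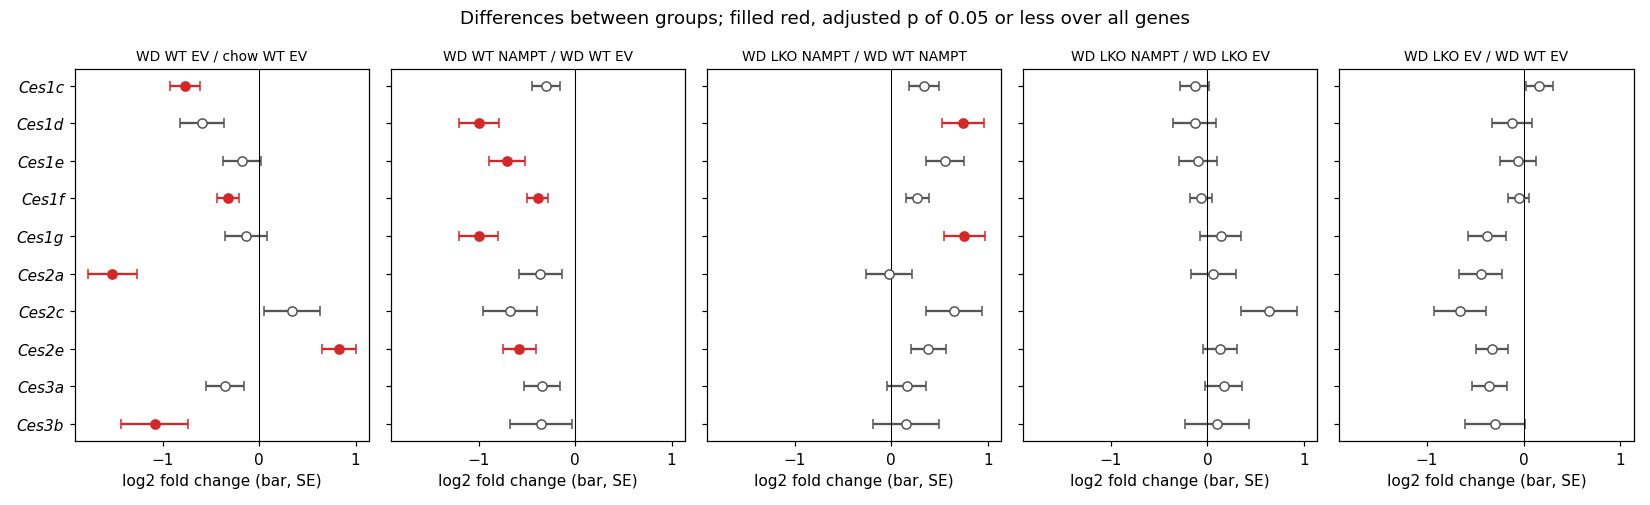
Log2 fold changes (horizontal axes, bar SE) of the 10 carboxylesterases in 5 comparisons, with the groups named above each panel and red filled points for an adjusted p of 0.05 or less over all genes. In the second panel all 10 points lie left of 0, and in the first Ces2a (-1.52) and Ces2e (0.83) lie on opposite sides.

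The members varied together from liver to liver, but not as 1 block. Pearson's r was computed over the 25 libraries on log2 CPM centred on the group means, as a description of libraries that share depth and normalization. It was highest for the near-identical pair Ces3a and Ces3b (0.942), then for Ces1d and Ces1e (0.894) and for Ces2a and Ces3b (0.850), which lie in the same cluster. It was lowest for Ces2a and Ces2e (0.169), genes of the same cluster with 83.3% coding identity. Ces1g was nearest to Ces1d (0.781), and was closer to Ces2c (0.750) and Ces2e (0.705) than to its neighbour Ces1f (0.394). All 45 pairs were above 0.

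**Figure D5:**
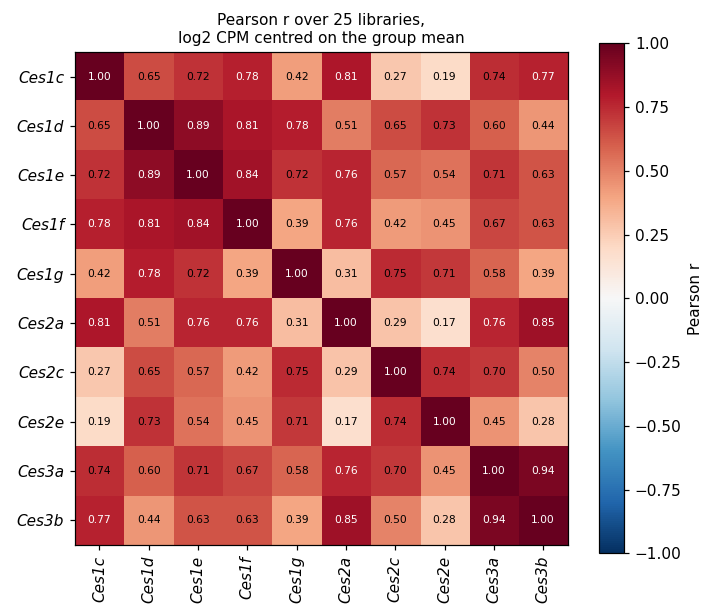
Pearson's r of each pair of carboxylesterases over 25 libraries, on log2 CPM centred on the group mean (colour scale from -1 to 1). Ces3a with Ces3b has 0.942, and Ces2e has 0.169 with Ces2a and 0.736 with Ces2c.

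The genes most like each member over all 25 libraries, by Pearson's r of log2 CPM among 12545 genes and without centring, differed from member to member. For the Ces1 members they were Serpinc1 (antithrombin) with Ces1c at 0.957, the glutathione transferase Gsta3 with Ces1d at 0.947, and the bilirubin glucuronosyltransferase Ugt1a1 with Ces1e at 0.956. Ces1f was nearest to Mgam (0.949) and Ces1g to the retinaldehyde dehydrogenase Aldh1a1 (0.931). The aldehyde oxidase Aox3 was nearest to Ces2a (0.937), Rarres1 to Ces2c (0.872) and Clstn3 to Ces2e (0.898). The plasma proteinase inhibitors Mug1 and Serpina1c were nearest to Ces3a (0.934) and Ces3b (0.955).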

How the data were processed

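Poly-A RNA of 25 livers was sequenced as single reads of 50 bases. The authors aligned reads to GRCm38 with STAR 2.5.1a and counted uniquely aligned reads per Ensembl gene with featureCounts 1.4.6-p5 (versions from the submitters' processing notes, where the study's methods give others), and deposited raw counts. The strand setting is not given in the sources used here. The authors also deposited CPM and RPKM, which were recomputed from the counts (largest relative deviation 5.9e-14). The labels' treatment text names SIRT1 as the insert, and the titles, which say NAMPT, were followed.

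Counts were scaled with TMM (edgeR 4.0.16) and fitted with voomWithQualityWeights (limma 3.58.1, R 4.3.3), with 1 mean per group over all 25 libraries and 4 ribosomal RNA genes left out. P-values were adjusted over 14065 genes (Benjamini-Hochberg). The 9 alternatives included edgeR's quasi-likelihood test and DESeq2 1.42.0. Correlations and the clock score used log2(CPM + 0.5). Symbols were matched for 40254 of 41388 identifiers. All 10 members were named, and from each list of other hydrolases and receptors at most 3 called genes per comparison, by the size of the log2 fold change. Members and lists were chosen with earlier results of these data known. Of the receptors and factors listed, 1 that was tested is not reported here, nor is 1 motif that was searched.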

Additional observations from a re-analysis of the deposited data

Results flagged for a closer look

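Each of the 40 combinations of a member and a group of 5 or 6 libraries was searched for a single library far from the rest, by Dixon's 95% limit, of which chance gives about 1 in 20. Of them, 2 were found. Ces1d in WD WT EV was lowest in replicate 8, at 288 CPM, against 449 CPM in the nearest library and 494 CPM at the other end. Without this library, Ces1d remained called in the comparison of WD WT NAMPT with WD WT EV. Ces3a in WD LKO NAMPT was lowest in replicate 1, at 764 CPM, against 1249 CPM in the nearest library and 1412 CPM at the other end. The macrophage marker sum of that library was 583 CPM, the highest of its group. Its part in the value was not tested. Ces3a was not called in the comparisons of this group, with or without this library.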

How the results depend on the processing

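Members called numbered 5 for WD WT NAMPT against WD WT EV (1890 of all genes). The count was 2 with edgeR's quasi-likelihood test, without sample weights or with only the groups compared (428, 192 and 804 of all genes), 3 with scaling by library size alone (2281), and 0 without WD WT NAMPT replicates 1 and 2 (37), an alternative added after seeing the data. With 1 library left out it ranged from 2 to 6. For WD LKO NAMPT against WD WT NAMPT (2 called, 1120 of all genes), it was 0 with either of edgeR's quasi-likelihood test and DESeq2, without weights, with library size alone, with no filter, with only the groups compared and without those replicates (5 to 840 of all genes), 1 with upper-quartile factors (1058), and 3 with the clock score as a covariate (Ces1d, Ces1e and Ces1g, 1625). It ranged from 0 to 4 with 1 library left out. For the diet (5 called, 3101 of all genes) it was 3 with edgeR's quasi-likelihood test, DESeq2, no weights or no filter (1201 to 1970), 6 with library size alone (Ces1d added, 3228), and 3 to 5 with 1 library left out. With only the groups compared it was 5, with Ces1d in place of Ces3b. For the interaction it ranged from 0 to 2. The cause was not tested. With scaling by library size alone the median of all genes was 0.16 for NAMPT in WT, -0.12 for LKO under NAMPT and -0.15 for the interaction, and all 10 members were below 0 in the first.

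Replicate numbers are shared between groups of different mice and did not pair the libraries (correlations of deviations from -0.38 to 0.42). With the replicate block, 2, 0 and 6 members were called for NAMPT in WT, LKO under NAMPT and the diet (884, 412 and 3842 of all genes), and for LKO with EV the median of the members was -0.016 (7 of 10 below 0). The log2 fold change under the block was 0.031 (Ces2a), 0.059 (Ces3a) and 0.50 (Ces3b) for NAMPT in WT, -0.023 (Ces3b) for LKO under NAMPT, 0.040 (Ces1e) and 0.45 (Ces3b) for LKO with EV, and -0.031 (Ces1c), -0.0013 (Ces2a) and -0.47 (Ces3b) for the interaction, each with the opposite sign to the fit without it.

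Signs also turned for values near 0 that were not called. For NAMPT in LKO, Ces3b was -0.065 (edgeR), -0.077 (DESeq2), -0.049 (no weights) and -0.037 (clock score), and -0.11 to 0.24 with 1 library left out. Ces2a there was -0.084 with the clock score and -0.11 to 0.19. For LKO under NAMPT, Ces2a was 0.0067 (no weights), 0.011 (no filter) and 0.050 (clock score), and -0.20 to 0.14 with 1 library left out. Ces3a was -0.039 (edgeR) and -0.048 (DESeq2). Ces3b was -0.25 (edgeR), -0.26 (DESeq2), -0.11 (no weights), -0.019 without replicates 1 and 2, and -0.058 to 0.30 with 1 library left out. Leaving out 1 library gave -0.13 to 0.048 (Ces1e) and -0.11 to 0.017 (Ces1f) for LKO with EV. For the diet, Ces1g was 0.018 without weights and -0.25 to 0.29. Depth was not limiting for the members: the lowest count was 255 (Ces2c, chow).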

Other observations

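Family genes outside the 10 members were low, apart from Ces1b and Ces2g. Ces2b measured 7.43 CPM in WD WT NAMPT replicate 6 and 3.0 CPM in WD WT EV replicate 8, and its group medians lay between 0.31 and 0.95 CPM. Ces4a was highest in the same WD WT NAMPT replicate 6, at 6.03 CPM, against a group median of 0.79 CPM. Ces2d-ps, annotated as a pseudogene and sharing runs of 50 bases with Ces2c, had group means of 1.07 to 1.91 CPM. Ces5a had at most 1 count in any library. These genes were named after their values were seen.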
